A study of Mus musculus with 12 samples.

Results

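The genes described here are 47 interferon-stimulated and antigen processing genes, taken as a named list. By role, 31 are antiviral effectors and regulators, 6 are interferon-inducible GTPases, 3 are interferon regulatory factors (IRFs, transcription factors of the response) and 7 make or load peptides for MHC class I. By gene symbol, 45 of the 47 were found among the 18194 genes that have a probe set of their own. A probe set is a group of short probes for 1 transcript. Isg15 and Ifi44 were not found under a single symbol and were not analysed here. Where a gene had several probe sets, the one with the highest mean level over all arrays stood for it. Of the 45 genes, 43 were above the level minimum and entered the tests, among 10583 genes in all. Mx2 and Zbp1, both antiviral effectors, were below it, and have values but no test.

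Blood cells of mice without the Stat5a and Stat5b genes (Stat5 knockout) and of mice with both genes (controls) were measured on 12 Affymetrix mouse arrays. STAT5A and STAT5B are transcription factors that carry signals from cytokine receptors. Each genotype had 3 arrays titled with a plus sign and 3 titled with a minus sign, which gave 4 groups: knockout plus, knockout minus, control plus and control minus. The treatment notes describe plus arrays as treated with CMP and minus arrays as not treated, but the titles of most arrays carry the letters CMP with either sign. What CMP stands for was not settled by the labels, so the groups are called plus and minus. The labels give neither the kind of blood cell, the age or strain of the mice, nor how or in which cells the Stat5 genes were deleted. They also do not state separate animals or cultures, so p-values measure only the spread between these arrays.

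The titles come in 3 spellings, called title forms A, B and C, and each form holds 1 array of every group. This gives 6 pairs of a plus and a minus array, 3 per genotype. Labels of 2 form B arrays disagree with the rest. The treatment note of the form B knockout minus array calls it a control, and the source name of the form B knockout plus array opens with another number than the other names of that form. Both were grouped by title. Their Stat5 signals matched their titles: over all 6 knockout arrays Stat5a read 28.9 to 90.1 and Stat5b 7.28 to 82.8, against 660 to 1436 and 1036 to 2177 over the 6 control arrays. Values are MAS5 signals on a linear scale, and array medians lay between 59.7 and 114. The ratio of 3′ to 5′ probe sets for beta-actin, a measure of RNA integrity, was 4.30 to 5.78 (log2) on form B arrays and 0.252 to 2.14 on those of forms A and C. It was higher on the plus array in 3 of 3 knockout pairs, by 0.244 to 1.63, and in 3 of 3 control pairs, by 0.593 to 1.35. In whole-cell RNA, fewer cells of a type and less RNA per cell cannot be told apart. Pan-blood markers were present on every array, with a summed signal of 39862 to 97070 over 8 genes.

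Type I interferons are secreted when cells sense viral nucleic acid. They signal through receptor-bound kinases to switch on genes that carry an interferon-stimulated response element (ISRE). Interferon gamma acts at genes with gamma-activated sites (GAS). Among the induced genes are enzymes that block viral replication, and the immunoproteasome, a proteasome whose catalytic subunits PSMB8, PSMB9 and PSMB10 stand in for PSMB5, PSMB6 and PSMB7. It cuts proteins into peptides, which TAP1 and TAP2 pump into the endoplasmic reticulum, where tapasin (TAPBP) loads them onto class I molecules that contain beta-2 microglobulin (B2M). Blood cells make immunoproteasome subunits also without added interferon.

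Promoter windows, from 250 bases before to 50 bases after the transcription start, were found for 36 of the 47 genes in RefSeq's annotation of GRCm38.p6. They are shown for the 3 immunoproteasome genes, which were lower on the plus array of all 6 pairs, and for Rsad2 and Ifit1, antiviral genes with large and uneven changes (Ifit1 was chosen after its values were seen). Each is printed 5′ to 3′ on the gene's own strand. Capitals mark the ISRE core, read as GAAANNGAAA or as TTTCNNTTTC for the opposite strand, and the GAS letters TTCNNNGAA, which read alike on both strands. Psmb8 lies at chr17:34197945-34198244 on the plus strand, Psmb9 at chr17:34187281-34187580 on the minus strand, Psmb10 at chr8:105938343-105938642 on the minus strand, Rsad2 at chr12:26456403-26456702 on the minus strand, and Ifit1 at chr19:34640639-34640938 on the plus strand.
Psmb8: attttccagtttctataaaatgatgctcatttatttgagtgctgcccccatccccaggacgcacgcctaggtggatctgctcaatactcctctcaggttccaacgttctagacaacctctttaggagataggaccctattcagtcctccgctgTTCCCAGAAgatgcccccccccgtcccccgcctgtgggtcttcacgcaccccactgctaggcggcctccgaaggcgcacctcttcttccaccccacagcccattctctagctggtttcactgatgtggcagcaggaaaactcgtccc
Psmb9: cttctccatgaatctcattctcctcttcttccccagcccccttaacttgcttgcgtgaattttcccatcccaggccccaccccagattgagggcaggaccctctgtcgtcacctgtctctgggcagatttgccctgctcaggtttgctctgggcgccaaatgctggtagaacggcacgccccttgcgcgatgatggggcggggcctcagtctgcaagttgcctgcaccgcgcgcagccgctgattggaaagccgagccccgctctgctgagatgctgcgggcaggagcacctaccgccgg
Psmb10: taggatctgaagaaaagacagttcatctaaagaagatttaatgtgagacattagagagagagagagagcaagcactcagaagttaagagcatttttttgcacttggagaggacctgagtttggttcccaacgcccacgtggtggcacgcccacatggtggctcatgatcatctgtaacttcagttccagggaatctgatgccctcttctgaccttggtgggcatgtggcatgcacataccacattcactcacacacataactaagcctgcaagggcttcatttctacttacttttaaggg
Rsad2: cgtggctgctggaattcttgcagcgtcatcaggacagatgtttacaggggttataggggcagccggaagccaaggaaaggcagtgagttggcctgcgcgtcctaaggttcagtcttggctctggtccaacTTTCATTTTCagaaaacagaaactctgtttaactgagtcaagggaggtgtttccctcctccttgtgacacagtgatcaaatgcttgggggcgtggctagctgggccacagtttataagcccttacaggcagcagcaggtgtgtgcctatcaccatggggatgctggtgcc
Ifit1: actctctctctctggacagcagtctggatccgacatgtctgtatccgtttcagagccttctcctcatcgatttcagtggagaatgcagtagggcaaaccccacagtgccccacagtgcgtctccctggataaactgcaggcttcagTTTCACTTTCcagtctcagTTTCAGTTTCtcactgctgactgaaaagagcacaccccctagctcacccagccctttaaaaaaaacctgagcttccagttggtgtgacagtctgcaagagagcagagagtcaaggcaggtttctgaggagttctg

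The ISRE core stood 120 bases before the start of Rsad2, and 104 and 85 bases before that of Ifit1. Psmb8 held no ISRE core but 1 GAS match, 97 bases before its start. Neither motif occurred in the windows of Psmb9 and Psmb10. Some genes have several windows, and a gene was counted where any of its windows held a match. Over the list, the ISRE core occurred in 15 of 36 genes with a window (41.7%), against 3.99% of 27025 genes. By role it occurred in 10 of 22 antiviral genes (45.5%), 4 of 5 GTPase genes (80%), 0 of 3 IRF genes and 1 of 6 class I genes (16.7%), namely B2m. GAS letters occurred in 11 of 36 genes (30.6%), against 9.55% of the 27025 genes. A match describes the letters only.

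Several members are neighbours in the genome. Tapbp, Psmb9, Tap1, Psmb8 and Tap2 lie together on chromosome 17 between bases 33919478 and 34216321. Tap1 and Psmb9 run in opposite directions from starts that are 226 bases apart, and their windows share 275 bases. Psmb10 lies apart from them, on chromosome 8. Ifit1, Ifit2 and Ifit3 lie together on chromosome 19, and Ifitm1, Ifitm3 and Irf7 on chromosome 7.

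The first comparison asked how the genes differ between plus and minus arrays within each genotype. The 3 immunoproteasome subunits were lower on the plus arrays in both genotypes, by 2.56-fold to 2.80-fold on a scale of log2(signal + 32). Rsad2, which makes an antiviral nucleotide, was higher by 5.35-fold in knockouts and by 6.16-fold in controls, on the same scale. Most other antiviral genes were not called in either genotype. Changes are differences on that scale, with the standard error of a limma fit over all 12 arrays that kept title form as a block. A gene is called at a Benjamini-Hochberg adjusted p threshold of 0.05 over all genes tested.

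In knockouts, 2 of 43 members were called higher on plus arrays, against 9.03% of all genes tested, and 5 of 43 lower, against 9.72%. In controls, 2 of 43 were called higher, against 10.6% of all genes tested, and 5 of 43 lower, against 11.6%. As shares these are 4.65% higher and 11.6% lower in each genotype, below the background for rises and near it for falls, which is no result about the list as a whole. Rsad2, Lgals3bp, Psmb8, Psmb9 and Psmb10 were called in both genotypes, 5 genes with the same direction in both. Samhd1 and Ifitm1 were called in knockouts alone, and Parp14 and Ifi47 in controls alone. Those 9 genes are described by array below, with knockouts before controls and forms in the order A, B, C.

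**Figure D1:**
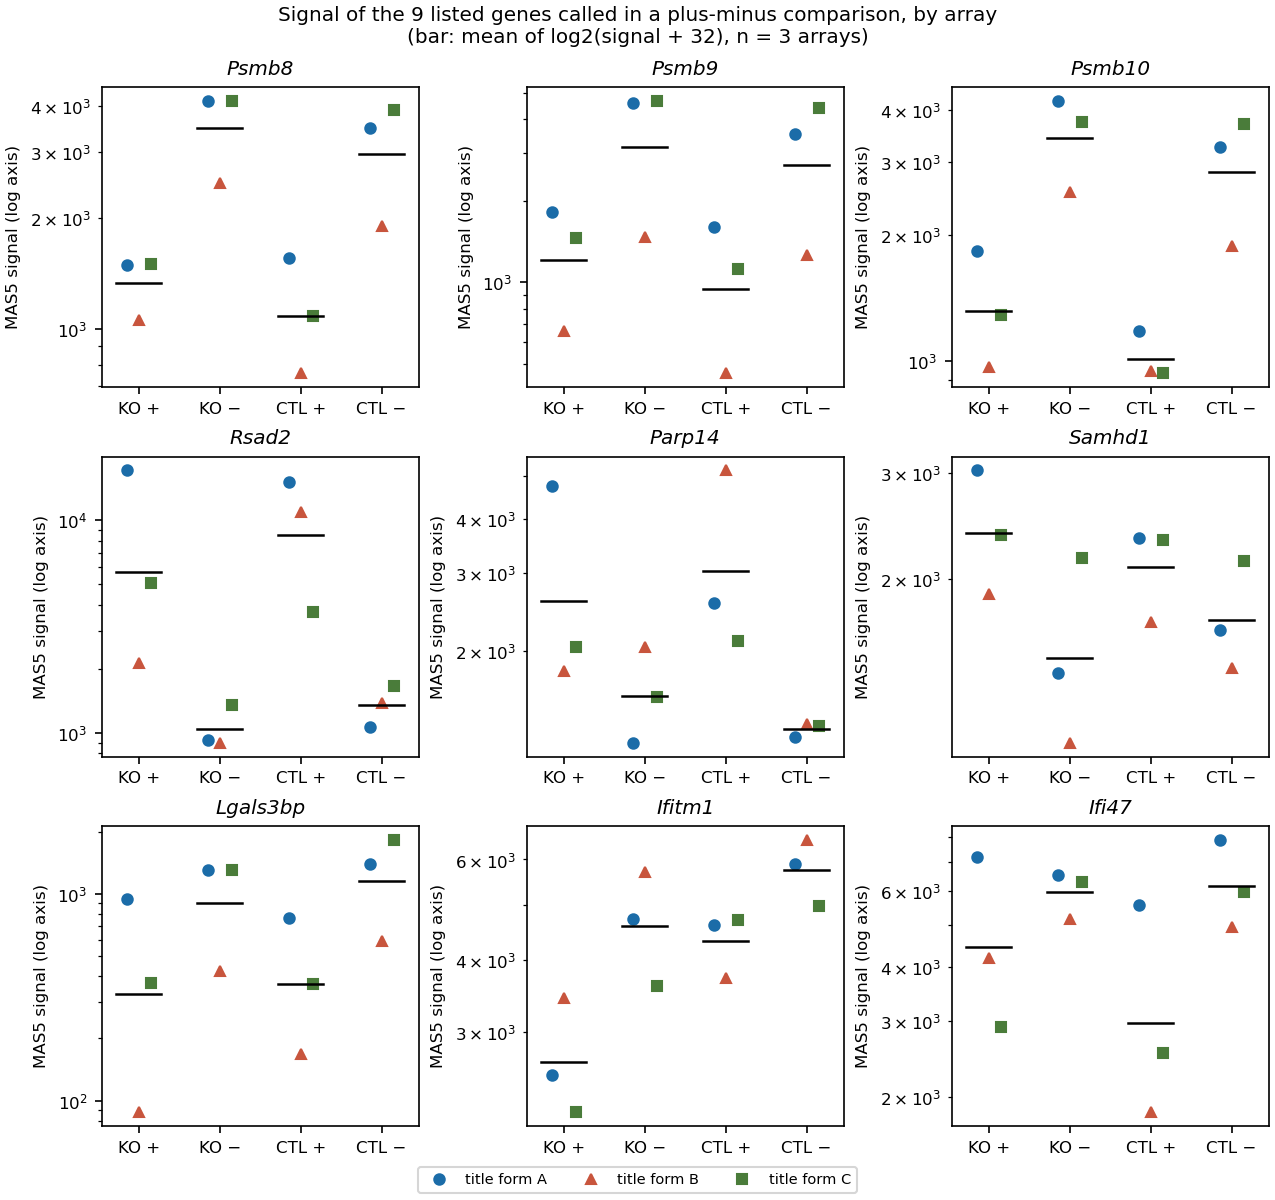
Signal of the 9 genes called in a plus-minus comparison (log axis), for knockout (KO) and control (CTL) arrays titled plus or minus. Each symbol is 1 array, its shape and colour give the title form, and the bar is the mean of log2(signal + 32) over 3 arrays. Psmb8 and Psmb10 show no overlap between plus and minus arrays in either genotype, while Rsad2 spreads from 2119 to 17149.6 on knockout plus arrays.

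Psmb8, the chymotrypsin-like subunit of the immunoproteasome, read 1486, 1058 and 1500.1 on the knockout plus arrays, against 4134, 2483 and 4122 on the knockout minus arrays. In controls it read 1553, 758 and 1086 on plus arrays, against 3502, 1897 and 3909 on minus arrays. Every plus array was below every minus array of its genotype. The change was -1.37 ± 0.18 in knockouts (log2, SE, adjusted p = 0.000743 in limma) and -1.42 ± 0.18 in controls (adjusted p = 0.000474). A dimmer probe set of Psmb8 gave -1.07 in knockouts and -1.06 in controls.

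Psmb9, the subunit that replaces PSMB6, read 1818, 662 and 1455 on the knockout plus arrays, against 4600.1, 1475 and 4682 on the knockout minus arrays. In controls it gave 1608, 461 and 1124 on plus arrays, against 3538, 1265 and 4401 on minus arrays. Form B was lowest in each group, so the ranges of plus and minus arrays overlapped, but within each form the plus array was lower. The fall was of nearly the size seen for Psmb8, at -1.37 ± 0.19 in knockouts (adjusted p = 0.000955 in limma) and -1.49 ± 0.19 in controls (adjusted p = 0.000516).

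Psmb10, the subunit that replaces PSMB7, read 1829.8, 966 and 1284 on the knockout plus arrays, against 4201, 2545 and 3736 on the knockout minus arrays. Its control signals were 1179, 942 and 931 on plus arrays, against 3255, 1888 and 3706 on minus arrays. The plus and minus arrays did not overlap in either genotype. Changes were -1.36 ± 0.20 in knockouts (adjusted p = 0.00125 in limma) and -1.46 ± 0.20 in controls (adjusted p = 0.000747). Without title form as a block, Psmb9 was not called in knockouts (adjusted p = 0.284) or controls (0.208), and Psmb8 not in knockouts (0.0640), while Psmb10 was called in both. When the beta-actin ratio entered the fit, all 3 were called in both genotypes, with changes of -1.42 to -1.66 in knockouts and -1.52 to -1.75 in controls.

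The other 4 class I genes were not called in either genotype. Tap1, a chain of the peptide pump, changed by -0.54 ± 0.27 in knockouts (adjusted p = 0.175 in limma) and by -0.63 ± 0.27 in controls (0.108). Tap2, its partner, read 1683, 76.1 and 1717 on the knockout plus arrays, against 2068, 543 and 2647 on the knockout minus arrays. It read 1695, 318 and 1605 on the control plus arrays, against 1961, 576 and 3019 on the control minus arrays. Tap2 was lower on the plus array of all 6 pairs, with the widest gap in form B knockouts, and had a change of -1.11 ± 0.37 in knockouts (adjusted p = 0.0577 in limma) and -0.63 ± 0.37 in controls (0.246).

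Tapbp, the loading factor, read 6438, 686 and 2569 on the knockout plus arrays, against 5273, 3164 and 4484 on the knockout minus arrays. Its change was -0.89 ± 0.38 in knockouts (adjusted p = 0.123 in limma) and -0.30 ± 0.38 in controls (0.605). B2m, the light chain of class I, read 10735, 21248 and 11206 on the knockout plus arrays, against 11647, 12758.5 and 11191 on the knockout minus arrays. On control arrays it read 8904, 7902 and 9270.2 with plus, against 10645, 12092 and 11041 with minus. The form B knockout plus array was thus the highest of all for B2m and the lowest of all for Tap2 and Tapbp. The change of B2m was 0.21 ± 0.20 in knockouts (adjusted p = 0.500 in limma) and -0.37 ± 0.20 in controls (0.197), and a second probe set of B2m gave -0.32 in knockouts and -0.87 in controls.

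**Figure D2:**
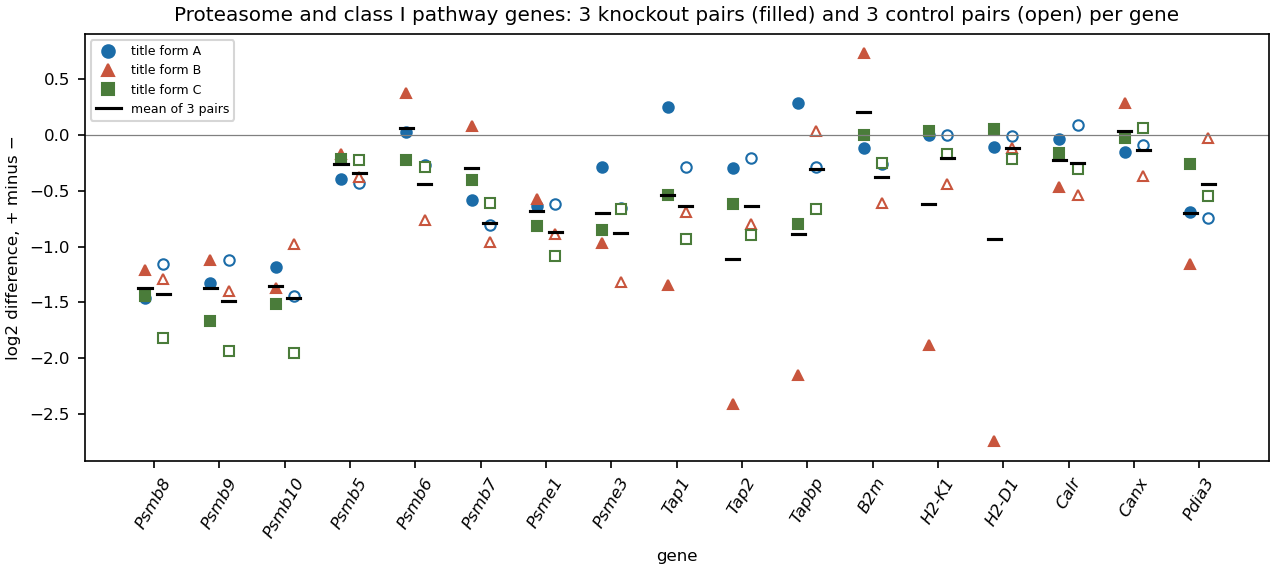
Difference in log2(signal + 32) between the plus and the minus array of each title form, for class I processing genes and other genes of the proteasome and class I pathway. Filled symbols are knockout pairs, open symbols control pairs, and bars the mean of 3 pairs. Psmb8, Psmb9 and Psmb10 lie at -0.98 or lower in all 6 pairs, and the form B knockout pair sets the low end for Tap2, Tapbp, H2-K1 and H2-D1.

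Of 14 other class I pathway genes listed, 13 were found. In knockouts 0 were called higher and 2 lower, against 9.03% and 9.72% of all genes tested. In controls 0 were called higher and 3 lower, against 10.6% and 11.6%. The list as a whole was not tested. Psme1, a subunit of the cap that opens the proteasome after interferon gamma, fell by 0.68 in knockouts (log2, adjusted p = 0.0143 in limma) and by 0.86 in controls (0.00345). Psme3, a related cap protein of the nucleus, fell by 0.70 in knockouts (adjusted p = 0.0434 in limma) and by 0.88 in controls (0.0147). Of the constitutive subunits, Psmb7 fell by 0.79 in controls (adjusted p = 0.0193 in limma) and changed by -0.30 in knockouts (0.340). Psmb5 changed by -0.26 in knockouts and -0.34 in controls, and Psmb6 by 0.06 in knockouts and -0.44 in controls, with no call for either. The difference between the immunoproteasome subunits and their constitutive counterparts was not tested. The class I heavy chains H2-K1 (-0.62 in knockouts, -0.20 in controls) and H2-D1 (-0.93 in knockouts, -0.11 in controls) were not called. H2-D1 read 1669 on the form B knockout plus array, against 8711 to 12880 on the other 11 arrays. The 4 uncalled pathway genes were chosen after their values were seen.

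Summed signals of marker genes for several cell types were set beside the same comparison. The labels do not say which of these cell types was measured. The summed signal of a 9-gene T and NK cell list was 1038 to 2513 on knockout plus arrays against 4351 to 5766 on knockout minus arrays, and 1276 to 2315 on control plus arrays against 4914 to 5729 on control minus arrays. Most of it was Nkg7, a gene of cytotoxic granules, while Cd3e, Cd3d and Cd3g, which define T cells, stayed at or below 94.5 on every array. Over the 9 genes the median log2 change was 0.09 in knockouts and 0.04 in controls, and 2 of the 9 were tested. A 6-gene erythroid list summed to 575 to 1054 on knockout plus arrays against 2028 to 5972 on knockout minus arrays, and to 739 to 1696 on control plus arrays against 2214 to 7853 on control minus arrays. Both sums were lower on the plus array of 6 of 6 pairs. On minus arrays most of the erythroid sum was Klf1, at 1258 to 6622. Of 4 erythroid genes tested, 3 were called lower in each genotype, against 9.72% of all genes tested in knockouts and 11.6% in controls. Hba-a1 and Alas2 stayed at or below 102 on every array. Hba-a1 read 40.7, 102 and 35.2 on knockout plus arrays, against 14.5, 3.53 and 23.4 on knockout minus arrays. In controls its direction varied by form. The sum of myeloid progenitor markers was also lower on the plus array of 6 of 6 pairs. It was 54967 to 78009 on knockout plus arrays against 65887 to 130089 on knockout minus arrays. In controls it was 51033 to 58806 on plus arrays against 60356 to 104907 on minus arrays. Of these 8 genes, 3 were called lower in each genotype, against 9.72% of all genes tested in knockouts and 11.6% in controls. Kit was higher on the plus array in 5 of 6 pairs. The sum of plasmacytoid dendritic cell markers was higher on the plus array of 6 of 6 pairs. It was 3053 to 4798 on knockout plus arrays against 2784 to 3878 on knockout minus arrays. In controls it was 3486 to 5124 on plus arrays against 2384 to 4343 on minus arrays. Most of it was Tcf4, at 1598 to 3936 over all arrays, while Klk1 of the same list was lower on the plus array of all 6 pairs. Of the other lists, sums were higher on the plus array in 5 of 6 pairs for pan-blood, 4 for conventional dendritic cell, 2 for monocyte and macrophage, 2 for B cell and 1 for neutrophil markers. The part of these cells in the plus-minus differences of the immunoproteasome, antiviral and GTPase genes was not tested.

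Antiviral effectors showed no common direction. Of 27 tested, 2 were called higher (7.41%) and 2 lower (7.41%) in knockouts, against 9.03% and 9.72% of all genes tested. In controls 2 were called higher (7.41%) and 1 lower (3.70%), against 10.6% and 11.6%. The antiviral median change was 0.16 in knockouts and 0.20 in controls, where the median of all genes was -0.06 and -0.02. The single changes ran from -1.37 to 2.76 in knockouts and from -1.56 to 3.32 in controls.

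Rsad2 (viperin) read 17149.6, 2119 and 5072 on the knockout plus arrays, against 924, 896 and 1356 on the knockout minus arrays. Control plus arrays gave 15194.5, 10872 and 3682, against 1069, 1385 and 1659.7 on control minus arrays. Every plus array was above every minus array of its genotype, and form A was highest in both genotypes. The rise was 2.42 ± 0.59 in knockouts (adjusted p = 0.0161 in limma) and 2.62 ± 0.59 in controls (adjusted p = 0.00885). Rsad2's other 2 probe sets gave 2.17 and 3.38 in knockouts and 1.73 and 3.38 in controls. When the beta-actin ratio entered the fit, the change was 2.10 in knockouts (adjusted p = 0.204 in limma) and 2.33 in controls (0.104), and the gene was called in neither genotype. The call ended in knockouts without the form A knockout plus array (1.69, adjusted p = 0.0556), the form A knockout minus array (1.99, 0.0707) or the form B knockout minus array (2.49, 0.0548), and in controls without the form B control plus array (2.18, 0.0596). In all, 7 of 27 alternative settings ended it in knockouts and 2 in controls.

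Lgals3bp, a secreted glycoprotein, read 944, 87.8 and 372 on the knockout plus arrays, against 1308, 422 and 1303 on the knockout minus arrays. In controls it gave 766, 169 and 367 on plus arrays, against 1395, 589 and 1829 on minus arrays. It was lower on the plus array of all 6 pairs, although the ranges overlapped because form B was low in each group. The fall was -1.37 ± 0.33 in knockouts (adjusted p = 0.0155 in limma) and -1.56 ± 0.33 in controls (0.00658). The knockout call ended without the knockout plus array of form C (-1.25, adjusted p = 0.0542), or the knockout minus array of form C (-1.24, 0.0763) or form B (-1.30, 0.0651), and when the beta-actin ratio entered the fit (-1.69, 0.0713). Of 27 alternative settings, 9 ended it in knockouts (adjusted p up to 0.387 in limma) and 2 in controls (up to 0.290).

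Ifitm1, a membrane protein that hinders virus entry, read 2518, 3440.4 and 2169 on the knockout plus arrays, against 4719, 5704 and 3602 on the knockout minus arrays. Its control signals were 4614, 3728 and 4697 on plus arrays, against 5902, 6495 and 4978 on minus arrays. Plus and minus arrays did not overlap in either genotype. The change was -0.78 ± 0.19 in knockouts (adjusted p = 0.0170 in limma) and -0.41 ± 0.19 in controls (0.146). The knockout call ended without any 1 of 4 knockout arrays, the form A plus, form A minus, form B minus or form C plus array (adjusted p = 0.0566 to 0.0807), and when the beta-actin ratio entered the fit (0.0704). In all, 10 of 27 alternative settings ended it (adjusted p up to 0.146 in limma).

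Samhd1, which breaks down the nucleotides needed for reverse transcription, read 3031, 1892 and 2370.2 on the knockout plus arrays, against 1398, 1072 and 2171 on the knockout minus arrays. Control plus arrays gave 2338, 1698 and 2327, against 1647, 1424 and 2144 on control minus arrays. The groups overlapped in both genotypes, and the form C pairs hardly differed. The change was 0.68 ± 0.20 in knockouts (adjusted p = 0.0363 in limma) and 0.29 ± 0.20 in controls (0.329). Other probe sets of Samhd1 disagreed, with 1 almost as bright at -0.23 in knockouts. The call ended without either form A or either form B knockout array, or without either form C control array (adjusted p = 0.0533 to 0.151). It ended in 16 of 27 alternative settings, among them the fit with the beta-actin ratio, where the change was 0.39 (adjusted p = 0.454 in limma).

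Parp14, an ADP-ribosyltransferase, read 4755, 1802 and 2035 on the knockout plus arrays, against 1233, 2040.4 and 1567 on the knockout minus arrays. In controls it gave 2574, 5152 and 2102 on plus arrays, against 1268, 1359.9 and 1349 on minus arrays. The plus arrays lay above the minus arrays in controls, whereas the knockout groups overlapped. The change was 0.70 ± 0.37 in knockouts (adjusted p = 0.200 in limma) and 1.18 ± 0.37 in controls (0.0400). The control call ended without any 1 of the 6 control arrays or the form C knockout minus array (adjusted p = 0.0501 to 0.197). It ended in 14 of 27 alternative settings, and when the beta-actin ratio entered the fit the change was 1.12 (adjusted p = 0.203 in limma).

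When title form was left out of the fit, the only call kept among these 5 antiviral genes was that of Rsad2 in controls, and the others had adjusted p values from 0.0747 to 0.387 in limma.

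Cxcl10 and Ifit1 had the widest ranges over arrays and were not called. Cxcl10, a chemokine that draws T cells, read 7789, 694 and 285 on the knockout plus arrays, against 33.1, 905 and 62.9 on the knockout minus arrays. It read 5703, 1375 and 244 on the control plus arrays, against 2.43, 584 and 72.9 on the control minus arrays. The form A and form C minus signals lie below the medians of their arrays (65.3 and 68.7 in knockouts, 59.7 and 81.3 in controls). The size of the form A and form C differences thus depends on the constant of 32. On the log2(signal + 32) scale the difference within forms was 6.91, -0.37 and 1.74 in knockouts and 7.38, 1.19 and 1.40 in controls. With a constant of 100 the form A differences were 5.89 in knockouts and 5.82 in controls, and with 1 they were 7.84 in knockouts and 10.7 in controls. Those of form C were 1.24 in knockouts and 0.99 in controls with 100, and 2.16 and 1.73 with 1. With 32, the change averaged 2.76 ± 1.25 in knockouts (adjusted p = 0.142 in limma) and 3.32 ± 1.25 in controls (0.0761). Ifit1, which binds viral RNA, read 2746, 122 and 86.2 on the knockout plus arrays, against 73.7, 144 and 68.9 on the knockout minus arrays. On control arrays it read 1951, 1097 and 56.4 with plus, against 72.9, 153 and 94.5 with minus. High Ifit1 was thus seen on both form A plus arrays and on the form B control plus array, and on no other array.

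**Figure D3:**
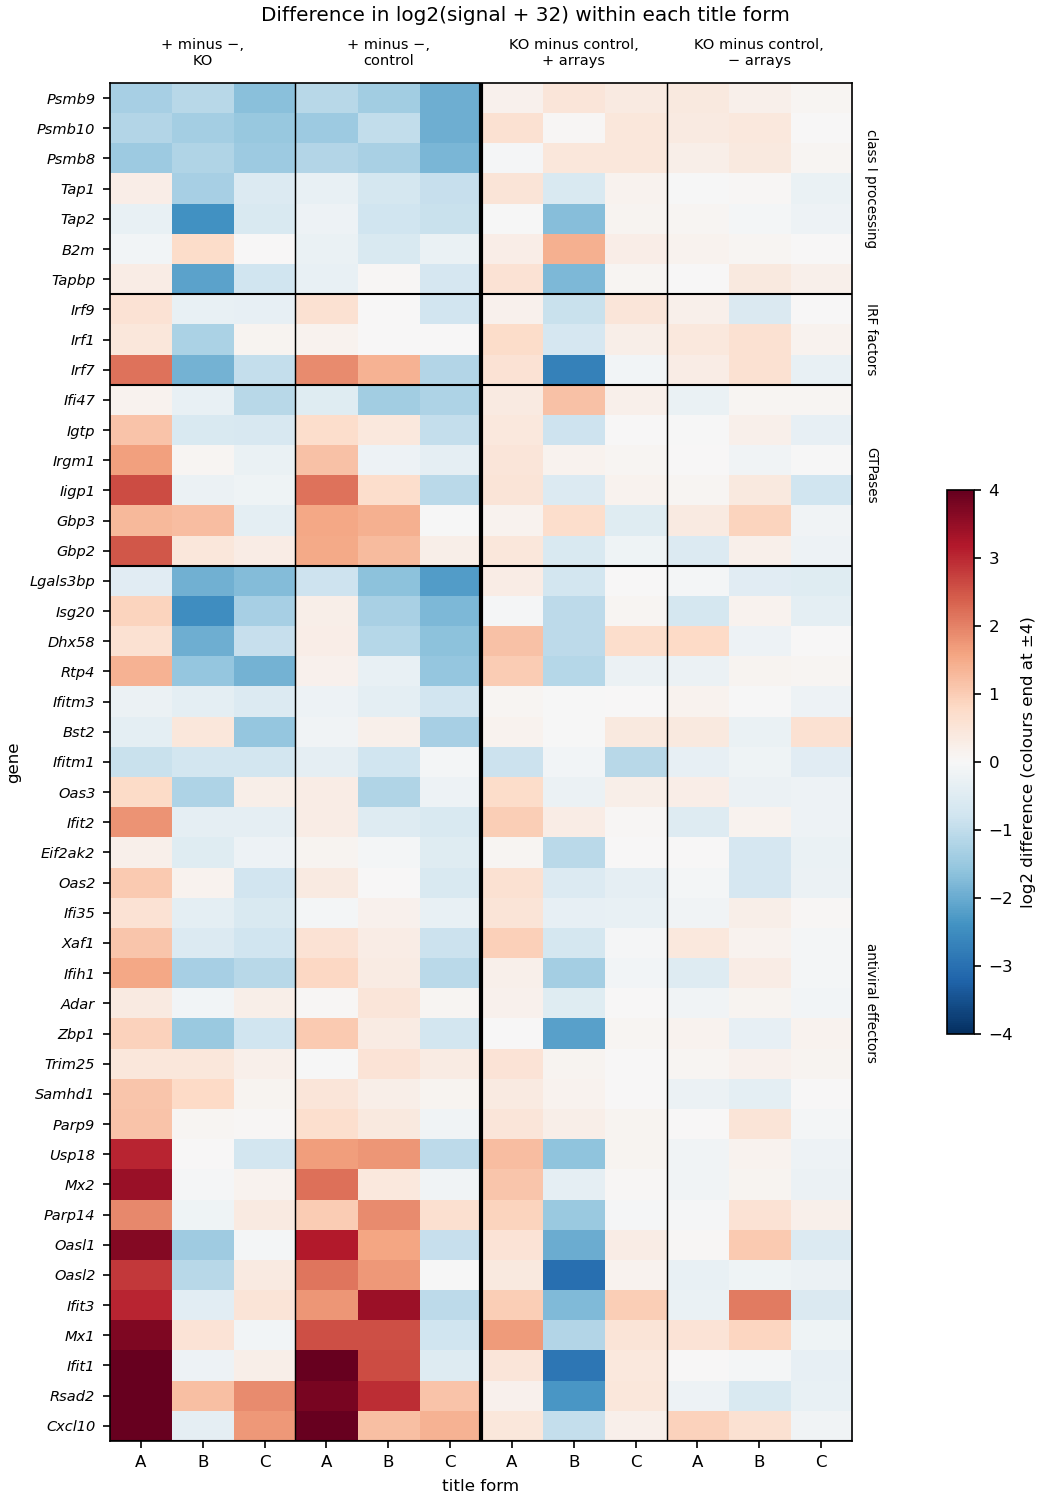
Difference in log2(signal + 32) within each title form (columns A, B, C) for the 45 genes found (rows, grouped by role), first between plus and minus arrays of knockouts and of controls, then between knockout and control on plus and on minus arrays. Red is higher and blue is lower. Of 29 antiviral genes, 25 and 23 are higher in form A of knockouts and controls and 8 and 20 in form B, whereas the 3 immunoproteasome genes are blue in all 6 plus-minus pairs.

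The antiviral genes were then counted by form. In form A, 25 of 29 were higher on the plus array in knockouts and 23 of 29 in controls. In form B, 8 of 29 were higher in knockouts and 20 of 29 in controls, and in form C 12 of 29 in knockouts and 6 of 29 in controls. By median, form A gave 1.11 in knockouts and 0.50 in controls, form B -0.39 in knockouts and 0.34 in controls, and form C -0.20 in knockouts and -0.61 in controls.

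Differences of over 1 log2 unit were counted as well. The plus array was higher by that much for 17 antiviral genes in form A, 1 in form B and 2 in form C of knockouts, and for 11, 9 and 2 of controls. It was lower by that much for 0, 9 and 5 genes in the knockout pairs of forms A, B and C, and for 0, 4 and 8 in the control pairs. Among all genes tested, 6.08%, 11.6% and 6.36% were higher by that much in the knockout pairs of forms A, B and C, and 7.16%, 13.4% and 6.74% in the control pairs. In the same order, 4.89%, 17.4% and 6.26% of all genes tested were lower by that much in knockouts, and 5.67%, 12.2% and 7.68% in controls. The 29 genes of a pair come from the same 2 arrays, and each form is a single pair per genotype, so the difference between forms has no replicates.

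GTPases of the interferon response, which attack the vacuoles of intracellular microbes, had a median change of 0.60 in knockouts and 0.41 in controls. In knockouts 0 of 6 were called, and in controls 1 of 6, which was lower, against 11.6% of all genes tested called lower. Gbp2, which coats such vacuoles, had the largest positive change. It read 4838, 1245 and 1079.5 on the knockout plus arrays, against 832, 897 and 878 on the knockout minus arrays. Its control signals were 3541, 1928 and 1221 on plus arrays, against 1221, 782 and 1026 on minus arrays. Gbp2 was higher on the plus array of all 6 pairs, most of all in form A, but was not called, at 1.08 ± 0.37 in knockouts (adjusted p = 0.0618 in limma) and 1.01 ± 0.37 in controls (0.0714).

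Ifi47, a GTPase of the same immunity-related family as Irgm1 and Igtp, was called lower in controls. It read 7198, 4188 and 2912 on the knockout plus arrays, against 6519, 5175 and 6278 on the knockout minus arrays. Control plus arrays gave 5577, 1847 and 2538, against 7872, 4944 and 5964 on control minus arrays. It was lower on the plus array of 3 of 3 control pairs, with overlapping ranges, and the change was -0.42 ± 0.25 in knockouts (adjusted p = 0.263 in limma) and -1.04 ± 0.25 in controls (0.0125). The control call ended without the control plus array of form B (-0.80, adjusted p = 0.0677), or the control minus array of form B (-1.04, 0.0526) or form C (-0.94, 0.0658). It ended in 5 of 27 alternative settings, including the fit without title form as a block (adjusted p = 0.190 in limma) and the fit without form C (0.105).

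None of the 3 IRFs was called in either genotype, with 0 of 3 also at an unadjusted p threshold of 0.05 in limma. Irf7, which amplifies type I interferon production, read 1307, 48.3 and 142 on the knockout plus arrays, against 262, 266 and 307 on the knockout minus arrays. In controls it gave 855, 490.0 and 155 on plus arrays, against 208, 165 and 386 on minus arrays. Irf7 was higher on the plus array of form A in both genotypes and of form B in controls alone. Its change was -0.22 ± 0.72 in knockouts (adjusted p = 0.856 in limma) and 0.71 ± 0.72 in controls (0.512). Irf1 had the lowest change of the 3 in knockouts at -0.23 ± 0.28, and Irf9 in controls at -0.05 ± 0.33.

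**Figure D4:**
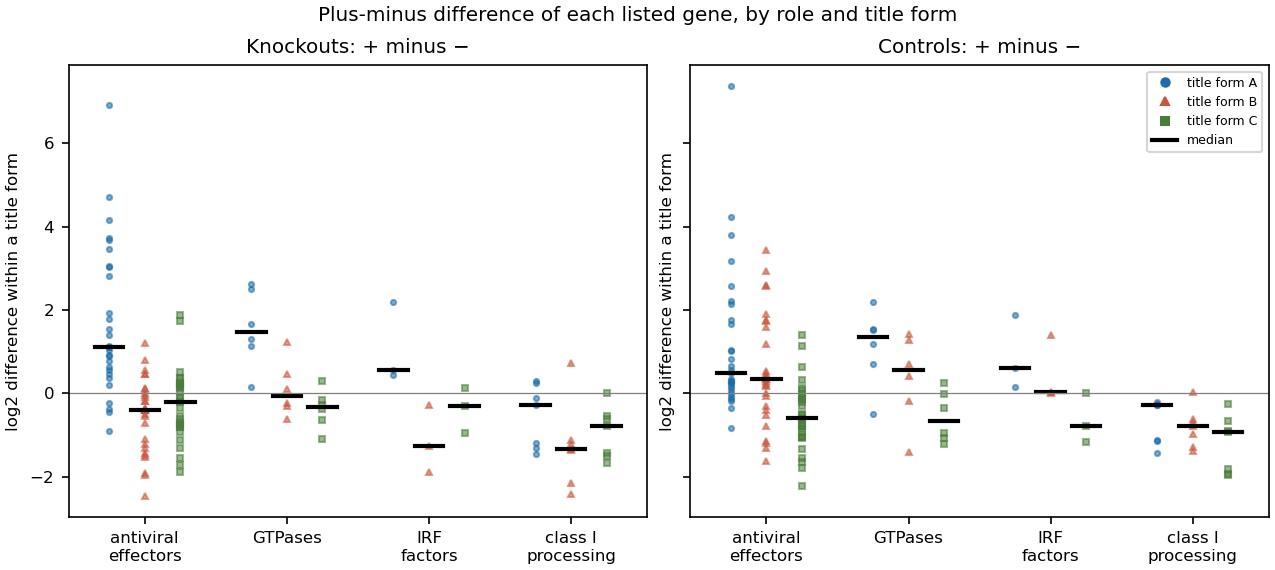
Difference in log2(signal + 32) between the plus and the minus array for each gene found, by role and title form, in knockouts (left) and controls (right). Each symbol is 1 gene and black bars are medians. The antiviral median runs from 1.11 to -0.39 over the 3 knockout pairs, while the class I median is below 0 in all 6 pairs.

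Set side by side, class I processing genes had a lower median than antiviral genes in 6 of 6 pairs, by 0.33 to 1.41 log2 units. The class I median was -0.29, -1.34 and -0.80 in knockout forms A, B and C, and -0.28, -0.80 and -0.93 in control forms. Over the 3 forms the class I median was -1.11 in knockouts and -0.63 in controls. In each genotype 3 of 7 were called lower (42.9%), against 9.72% of all genes tested in knockouts and 11.6% in controls. The knockout median was -0.48 without the form B knockout plus array, while the 3 immunoproteasome genes then changed by -1.32 to -1.48 and were called. Without all of form B it was -0.45.

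Genes with 1 direction in all pairs were counted by role. A lower signal on the plus array in all 6 pairs was found for 4 of 7 class I genes (57.1%: Psmb8, Psmb9, Psmb10 and Tap2), 3 of 29 antiviral genes (10.3%: Lgals3bp, Ifitm1 and Ifitm3) and 0 of 9 GTPases and IRFs, against 20.3% of all genes tested. A higher signal in all 6 was found for 2 antiviral genes (6.90%: Rsad2 and Samhd1) and for Gbp2 among the 6 GTPases, against 16.6% of all genes tested. These are descriptions, since neighbours such as Psmb8, Psmb9 and Tap2 are not independent of each other and pairs of a form vary together.

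The knockout was compared with the control on plus and on minus arrays. No member was called in either comparison, where 2 genes were called in all (0.0189% in each), Stat5a and Stat5b themselves. At an unadjusted p threshold of 0.05 in limma, 3 members passed on plus arrays, against 1038 of all genes, and 0 on minus arrays, against 250. The 3 were Ifitm1 at -0.69 ± 0.19, B2m at 0.66 ± 0.20 and Ifi47 at 0.58 ± 0.25, each with an adjusted p of 0.507. For the immunoproteasome genes the difference was 0.29 to 0.37 on plus arrays and 0.23 to 0.27 on minus arrays, with standard errors of 0.18 to 0.20.

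The antiviral median lay further from 0 on plus than on minus arrays in forms A and B, in opposite directions. In form A, 27 of 29 were higher in the knockout plus array than in the control plus array (median 0.49), and in form C 22 of 29 (median 0.05). In form B, 4 of 29 were higher (median -0.95), and 14 of 29 were lower by over 1 log2 unit, where 17.5% of all genes tested were lower by that much. The form B knockout plus array is the one whose source name differs. It also had the highest beta-actin ratio of all arrays (5.78, log2). Of 7 neutrophil markers, 7 were lower by over 1 log2 unit than on the form B control plus array (median -2.59). The part of these traits in the antiviral difference was not tested. Without this array the antiviral median on plus arrays was 0.21 in place of -0.09. On minus arrays the medians were -0.09, 0.10 and -0.21 in forms A, B and C.

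Whether the plus-minus difference itself depended on genotype was tested as an interaction. No member passed (0% of all genes tested), with 0 members and 223 of all genes at an unadjusted p threshold of 0.05 in limma. The difference of differences, knockouts minus controls, was 0.05 ± 0.26 for Psmb8, 0.12 ± 0.27 for Psmb9, 0.10 ± 0.28 for Psmb10 and -0.20 ± 0.83 for Rsad2. The 95% interval was -0.51 to 0.62 for Psmb8, -0.48 to 0.72 for Psmb9, -0.52 to 0.72 for Psmb10 and -2.02 to 1.61 for Rsad2. These intervals are not adjusted for the number of genes tested, and they are not the smallest dependence on genotype that could be detected. A dependence of a size within them was not resolved with 3 arrays per group.

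Upstream genes of the pathway were taken from further lists. Over all genes tested, 9.03% were called higher and 9.72% lower in knockouts, and 10.6% higher and 11.6% lower in controls. Of the 5 tested among interferons and their receptors, 1 was called higher in knockouts, and 1 higher and 1 lower in controls. Ifnar1, a chain of the type I interferon receptor, rose by 0.64 in knockouts (adjusted p = 0.0353 in limma) and by 0.57 in controls (0.0492). Ifngr1, the ligand-binding chain of the interferon gamma receptor, changed by -0.74 in knockouts (adjusted p = 0.0567) and by -1.36 in controls (0.00312). Ifnb1 and Ifng themselves were below the level minimum.

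Of 5 signal transducers, Jak2 was called higher in both genotypes, by 0.61 in knockouts (adjusted p = 0.0210 in limma) and 0.66 in controls (0.0128). Of 11 sensors and adaptors, Irf5, a transcription factor downstream of Toll-like receptors, was called, at 1.25 in knockouts (adjusted p = 0.00851 in limma) and 1.27 in controls (0.00634). Of 8 repressors and regulators, 0 were called in knockouts and 2 in controls: Socs3, an inhibitor of cytokine receptor signalling, at 2.48 (adjusted p = 0.00431 in limma), and Irf2, which competes with IRF1, at 0.89 (0.0265). Socs3 changed by 0.63 in knockouts, and its interaction was -1.85 ± 0.68 (adjusted p = 0.954 in limma).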

How the data were processed

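The deposited table holds 1 linear intensity per probe set and array, made by the authors with MAS5, per the submitters' processing notes. The version and detection calls were not given in the sources used here. Trimmed by 2% on either side, array means came to 500.003, so the signals had been scaled to a common level. There are no read counts behind a signal, and precision is limited by how many arrays there are.

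Of 45101 probe sets, 34958 carry 1 gene symbol in the platform annotation. Values were taken as log2(signal + 32), and genes had to average at least 6.76 (the median over probe sets) to be tested. One limma fit (limma 3.58.1, R 4.3.3; 6 residual and 5.78 prior degrees of freedom) held the 4 groups and title form as a block, with two-sided tests. Deviations from group means correlated at 0.41 to 0.77 in the 18 array pairs sharing a title form. They correlated at -0.64 to 0.28 in 36 pairs that share neither form nor group, so the form was taken to pair arrays. In 12 pairs of the same group the range was -0.83 to 0.35, where taking out the group mean itself lowers the correlation. The fit was tested on simulated data. Motif searches read both strands of RefSeq promoter windows.

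The genes, lists and roles were chosen with earlier results of these data known. By rule, array values are given for members called in a contrast, and the largest positive and negative change per role is named. The array values of Ifit1 and Tap2 are given outside that rule. Of pathway lists, called genes are named.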

Additional observations from a re-analysis of the deposited data

How the results depend on the processing

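Across 27 alternative settings, Psmb10 was called in both genotypes under all of them, and so was Psmb8 in controls. Psmb8 in knockouts and Psmb9 in both lost the call once each, without title form as a replicate block. No change of the 9 called genes turned its sign. The 7 members called in knockouts became 1 without the replicate block, 3 with only the arrays compared, 4 with the array of conflicting labels counted as a control, 4 with the beta-actin ratio in the fit and 18 with weighted arrays. The 7 called in controls became 3 without the block, 13 with only the arrays compared and 13 with array weights. Leaving out 1 array gave 3 (without the form B knockout minus array) to 9 in knockouts, and 4 (without the form B control plus array) to 15 (without the form B knockout plus array) in controls. Over all genes, settings called 298 to 4008 in knockouts (1985 as reported) and 470 to 4151 in controls (2344 as reported).

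The class I median in knockouts was -0.45 without form B, -0.53 with array weights and -1.38 to -0.48 with 1 array left out. The GTPase median in knockouts was -0.48 with the beta-actin covariate. For knockout against control on plus arrays, centring arrays on their medians gave a class I median of 0.54, where the median of all genes was 0.20. Array weights gave a GTPase median of 0.53 and called 1 member, Ifitm1, and leaving out 1 array gave GTPase medians of -0.42 to 0.47. On minus arrays, leaving out 1 array gave -0.42 to 0.29 for antiviral genes, -0.38 to 0.26 for GTPases, -0.43 to 0.51 for IRFs and 0.092 to 0.25 for class I genes. The GTPase interaction median was -0.45 to 0.47 with 1 array left out. Centring moved the median of all genes to -0.28 in controls, and the immunoproteasome changes there to -1.68 to -1.75. The fit with only the arrays compared uses all arrays for the interaction, so it gave no separate value. The cause of these shifts was not tested.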
